A study of Mus musculus with 4 samples.

Results

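The 84 cytosolic ribosomal protein genes listed here are the rows, of 38924 genes in the tables, whose symbol names a protein of the large subunit (Rpl), the small subunit (Rps), the stalk (Rplp0, Rplp1, Rplp2) or Rpsa. They were chosen by symbol alone, so their read counts played no part in the choice. RNA was sequenced from a piece of kidney in 2 immune complex libraries and 2 saline libraries. The immune complex mice received preformed complexes of IgG with galactose-deficient IgA1 (the IgA1 form that is a known autoantigen in IgA nephropathy) through the tail vein. The saline mice received saline by the same route. Both groups were female CB-17 SCID mice on a Balb/c background, a strain that lacks mature B and T cells, given 3 injections over 7 days, and kidneys were taken the day after the last one. The labels give no age, and nothing in them shows that the libraries come from separate animals, so the p-values cover the spread among libraries, which may be technical.

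Of the 84 rows, 81 held enough exon reads to be tested. Rpl10l had no exon read in any library, Rpl39l had 1 read in the library immune complex 1, and Rps12l1, annotated as a processed pseudogene, had 41 gene reads over the 4 libraries, none of them entered as an exon read. The row named Rpl24 carries the gene ID of Zbtb11, a zinc finger gene next to it, at chr16:55973883-56008913 (GRCm38), so its values are kept in the counts but are not those of the ribosomal protein. The gene with the ID of the ribosomal protein is the row RPL24 at chr16:55966275-55971435, which the rule does not take; it held 594 exon reads over the 4 libraries, of which 0.673% were unique.

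Each cytosolic ribosome has a large 60S subunit, which forms peptide bonds, and a small 40S subunit, which reads the messenger RNA, and most ribosomal proteins are present in equal number in it. The messenger RNAs of these proteins are short and abundant and start with a run of pyrimidines called the 5′ TOP motif, through which mTORC1 and LARP1 control their translation. Because the messages are abundant, reverse-transcribed copies of them have entered the mouse genome many times as processed pseudogenes, which lack introns and keep nearly the coding sequence of the parent gene. A read inside an exon can therefore match the gene and its copies equally well. So can a read across an exon junction, where the copy keeps the same bases.

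The near-identity is shown by the genes whose reads were placed most unevenly between gene and copy. Rpl26, a large subunit protein that in human cells also binds the p53 message, lies at chr11:68901583-68906989 on the forward strand (GRCm38), and its copy Gm15772 lies at chr5:3236389-3236907 on the forward strand. Coding bases 169 to 288 of the GENCODE M21 transcript are given 5′ to 3′ in lower case, with the copy's differing bases in capitals; these 2 are the only differences in the coding sequence up to the stop codon.
Rpl26: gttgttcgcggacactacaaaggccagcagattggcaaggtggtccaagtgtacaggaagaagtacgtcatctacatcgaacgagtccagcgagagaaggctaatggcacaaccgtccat
Gm15772: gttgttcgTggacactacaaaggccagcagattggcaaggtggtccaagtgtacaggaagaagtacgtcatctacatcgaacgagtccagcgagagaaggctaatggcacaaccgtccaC

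Rpl3, a large subunit protein close to the site of peptide bond formation, lies at chr15:80077781-80083406 on the reverse strand, and its copy Rpl3-ps1 lies at chrX:13202546-13203838 on the forward strand. Over coding bases 1 to 120 the copy differed at 1 base, of 2 in the coding sequence.
Rpl3: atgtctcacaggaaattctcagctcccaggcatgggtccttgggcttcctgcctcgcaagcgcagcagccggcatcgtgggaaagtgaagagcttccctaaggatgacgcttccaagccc
Rpl3-ps1: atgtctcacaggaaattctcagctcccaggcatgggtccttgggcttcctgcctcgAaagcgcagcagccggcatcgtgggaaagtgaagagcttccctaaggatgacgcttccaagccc

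Rps27 and its paralog Rps27l, both zinc finger proteins of the small subunit, are shown with the closest copy of Rps27. Over the coding sequence of Rps27 up to the stop codon, that copy differed at 10 bases and Rps27l at 60. The stretch below was chosen for the most differences between Rps27 and the copy. Over coding bases 22 to 141 of Rps27 (chr3:90212725-90213615, reverse strand), its closest copy Gm15531 (chr6:97890288-97890539, reverse strand) differed at 7 bases and Rps27l (chr9:66946086-66949516, forward strand) at 29.
Rps27: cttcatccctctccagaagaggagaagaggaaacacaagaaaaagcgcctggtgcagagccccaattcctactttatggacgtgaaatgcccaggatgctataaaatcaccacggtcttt
Gm15531: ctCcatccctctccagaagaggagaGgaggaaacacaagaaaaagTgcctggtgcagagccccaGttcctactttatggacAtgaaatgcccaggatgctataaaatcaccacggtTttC
Rps27l: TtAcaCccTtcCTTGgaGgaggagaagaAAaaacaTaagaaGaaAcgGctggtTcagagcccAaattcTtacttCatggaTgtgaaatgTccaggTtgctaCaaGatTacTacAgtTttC

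The pyrimidine run around the annotated start base is shown for the 6 genes with the longest run in the RefSeq promoter windows (GRCm38.p6). Runs were counted on both sides of that base. Bases before it lie outside the annotated message, so the run is not the 5′ TOP motif itself. Each line gives 15 bases before the annotated start base and 15 from it on, in the direction of transcription, with the run that holds the start base in capitals; in Rpl27a and Rpl34 the run goes on past the line.
Rpl7a (chr2:26910792-26910821, forward): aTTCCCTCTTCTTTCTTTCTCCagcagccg
Rpl27a (chr7:109519180-109519209, forward): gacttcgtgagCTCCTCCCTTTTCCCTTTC
Rpl34 (chr3:130730323-130730352, reverse): CCTTCCTTTTCCTCTTCCggggacggtgct
Rpl35 (chr2:39005117-39005146, reverse): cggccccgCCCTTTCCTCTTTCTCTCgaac
Rpl15 (chr14:18270972-18271001, reverse): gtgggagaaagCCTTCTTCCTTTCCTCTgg
Rpl14 (chr9:120571502-120571531, forward): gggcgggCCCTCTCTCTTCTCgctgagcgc

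These promoter windows covered 62 of the genes, in 74 windows of 300 bases from 250 bases before to 50 bases after the start. A run of at least 5 pyrimidines held the annotated start base in 20 of the 74 windows (27.0%), against 3330 of all 32851 promoter windows (10.1%). On either strand, CCGGAAG, the letters of an ETS factor site, was in 35.1% of the ribosomal protein windows and 8.86% of all windows, and GGAAG, which it contains, in 93.2% and 71.4%. AAGATGG, the letters of a YY1 site, was in 16.2% and 6.34%, and TATAAA in 9.46% and 13.6%. A match describes these letters only.

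Levels per length differed widely between genes whose proteins the ribosome mostly holds in equal number. In deposited RPKM, which are reads per kilobase of exon scaled to library size (per-million), averaged over the 4 libraries, the 81 tested genes ranged from 0.249 to 768 with a median of 96.1, and their lower and upper quartiles of 46.5 and 179 stood 3.84-fold apart. The median of all 13622 tested protein-coding genes was 4.98 RPKM, and 62 of the 81 were above those genes' upper decile of 36.6 RPKM. The levels thus placed most ribosomal protein genes among the most abundant messages of the kidney, with 7 under the protein-coding median.

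The highest level was that of Rplp1, an acidic stalk protein that helps to recruit elongation factors, at 920 and 570 RPKM in immune complex libraries, against 772 and 809 RPKM in saline libraries. Rps15, near the decoding site of the small subunit, had 563 and 294 RPKM in immune complex and 478 and 491 RPKM in saline libraries. Rpl8, in the core of the large subunit, had 515 and 341 RPKM in immune complex and 498 and 464 RPKM in saline libraries. In each of these genes the library immune complex 1 was the highest and immune complex 2 the lowest, with the saline libraries between them. Rpl32 followed at a mean of 413 RPKM and Rpl4 at 398 RPKM, both proteins of the large subunit. At the other end, Rpl3l, the paralog of Rpl3 known from heart and skeletal muscle, had 0.427 and 0.112 RPKM in immune complex and 0.309 and 0.145 RPKM in saline libraries, from 35 exon reads in all. Rpl21, Rpl35a and Rpl26, which are core proteins of the large subunit, followed at means of 1.07, 1.44 and 2.05 RPKM, with the row Rpl24 among them at 1.63 RPKM. The deposited exon length counts all annotated exons of a gene, so a gene with long rare isoforms is given a lower RPKM.

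Reads of ribosomal protein genes were mostly not unique. The tables count each gene's exon reads in total and those that are unique, and the share of unique reads over the 84 genes was 36.9% and 39.5% in immune complex libraries, against 38.5% and 37.8% in saline libraries. Over all other genes it was 87.6% and 88.3% in immune complex and 88.1% and 87.9% in saline libraries. The median share of a tested gene was 14.8%. Fewer than 50% of the exon reads were unique in 61 of the 81 tested genes, fewer than 10% in 27 and fewer than 1% in 10. Values of genes with fewer than 50% unique reads are therefore uncertain in level, since their reads also match other places. A higher share, such as that of Rpl21 below, does not make a level certain. What was done with reads that match several places is not given.

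Copies were counted as annotated pseudogenes that match at least 90% of the bases over at least 60% of a gene's coding sequence; 663 of them, belonging to 74 of the 84 genes, have a row in the tables. The 50 tested genes with a copy of at least 99% identity had a median unique share of 9.12%, and the 23 whose closest copy was less alike had a median of 51.3%. Of the 8 tested genes without such a copy, 1 is the row Rpl24, with the ID of Zbtb11, at 91.4% unique. Of the other 7, 6 had nearly all reads unique, among them Rpl4, Rpl8 and Rpl3l with 100%, Rps9 with 99.99% and Rps3 with 99.97%. The one with a low share was Rplp2, a stalk protein, at 38.4% (Wilson 95% interval 37.5% to 39.2%). Over the 80 tested genes whose ID bears the same name, the rank correlation between the number of copies and the unique share was -0.56 (Spearman, across genes, which share libraries), and between the number of copies and the RPKM it was -0.39. More copies went with fewer unique reads and with a lower level, as a description of these tables.

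**Figure D1:**
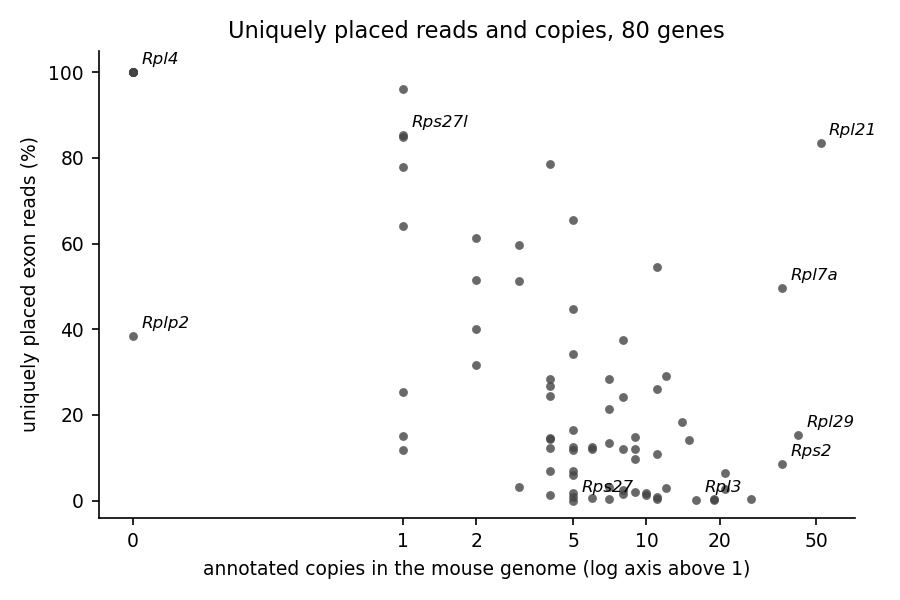
Each point is 1 of 80 tested ribosomal protein genes; the horizontal axis is the number of annotated copies in the mouse genome (log axis above 1) and the vertical axis the percent of its exon reads, summed over 4 libraries, that are unique. Genes without a copy sit near 100% apart from Rplp2 at 38.4%, and Rpl21, with 52 copies, sits at 83.4%.

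At the lowest end, none of the 3237 exon reads of Rps27 was unique, which allows a share of up to 0.0927%, although its closest copy is only 96.0% identical. Its paralog Rps27l had 85.4% unique reads of 8509. Rps12, of the small subunit, had 1 unique read of 1725, and Rpl3 had 2 of 3497. Rps6, the protein whose phosphorylation by S6 kinase is used as a readout of mTORC1, had 0.363% unique of 12956 reads, and its copy Rps6-ps4 has an identical coding sequence. Rpl19 had 0.332% unique of 11731 reads. Rpl21 went the other way: 83.4% of its 307 exon reads were unique, although it has more copies, 52, than any other gene here.

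For some genes most of the reads were placed on the copy. Rpl26 itself held 76 and 68 exon reads in immune complex libraries and 50 and 59 in saline libraries. Its copy Gm15772, whose sequence stands beside it above, held 5650 and 3846 reads in immune complex and 4142 and 4409 in saline libraries, and 2233 of these 18047 reads were unique. The copy thus held far more reads than the gene in every library. As RPKM computed from the length of the annotated principal transcript and the total exon reads of a library, Rpl26 averaged 5.34 alone and 389 with its copies. Rpl3 held 1100 and 710 exon reads in immune complex and 676 and 1011 in saline libraries, and Rpl3-ps1 held 9891 and 9169 in immune complex and 9359 and 9204 in saline libraries. On the same scale Rpl3 averaged 33.2 alone and 396 with its copies.

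In all, 6 tested genes gained more than 2-fold when the reads of their copies were added: besides Rpl26 and Rpl3, these were Rpl35a (6.77-fold), Rpl29 (5.89-fold), Rps2 (2.41-fold) and Rpl11 (2.05-fold). Another 54 gained less than 10%. The copies held 158103 reads over the 4 libraries, of which 9601 were unique, against 1114934 exon reads on the genes themselves. Adding them narrowed the distance between the quartiles of the level per transcript length to 3.20-fold, against 3.54-fold without them. Rpl21 stayed low with its copies, at 3.01 on this scale. This scale depends on the annotated principal transcript, which is as long as 5179 bases for Rps15a and 3706 bases for Rps20. The rows named as ribosomal protein pseudogenes (222 rows) were taken by name and not by identity, so they need not all be among these copies. They held 19244 and 17151 reads in immune complex and 18203 and 17600 in saline libraries. Of these reads, 3.78% and 4.01% were unique in immune complex and 3.71% and 3.79% in saline libraries.

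**Figure D2:**
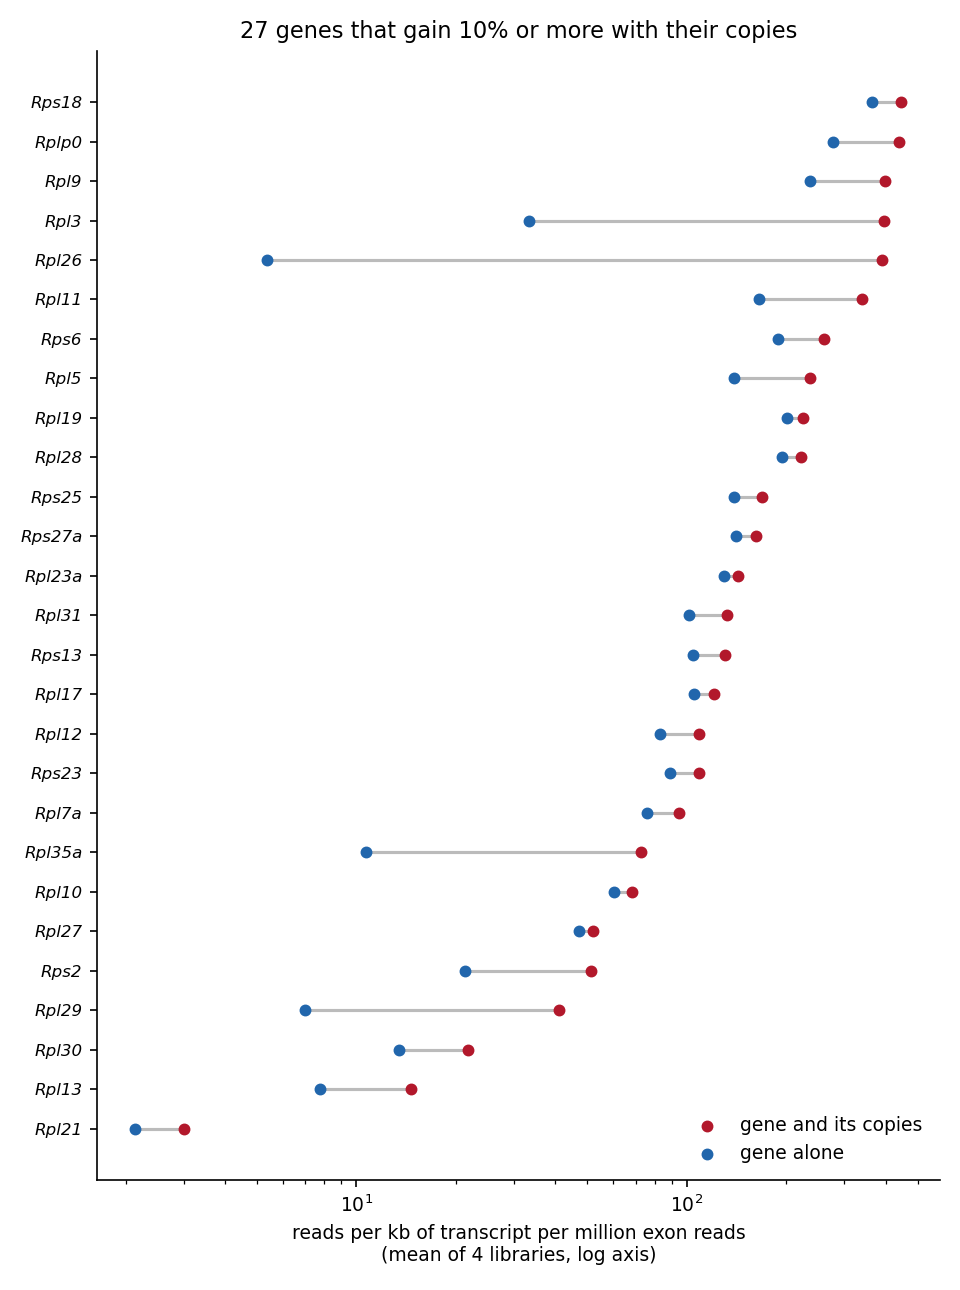
For the 27 genes that gain 10% or more, the level of the gene with its copies and of the gene alone is given as RPKM over the length of the principal transcript (mean of 4 libraries, log axis). Rpl26 moves to 389 with its copies, against 5.34 alone, and Rpl3 to 396, against 33.2.

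The split between a gene and an identical copy also varied between libraries. Rpl5, which with Rpl11 and 5S RNA can bind and inhibit MDM2, has a copy, Gm15500 at chr7:114705216-114706235, that is identical over all 891 coding bases up to the stop codon. Rpl5 held 6321 and 5156 exon reads in immune complex and 5312 and 5245 in saline libraries. Gm15500 held 2340 and 3500 reads in immune complex and 1366 and 2587 in saline libraries, so the copy was lowest in saline 1 and highest in immune complex 2, whereas the gene was highest in immune complex 1. With all its copies, Rpl5 stood at 241 and 239 on the scale of transcript length in immune complex and 226 and 241 in saline libraries.

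Between immune complex and saline kidneys, no ribosomal protein gene passed the test. None of the 81 tested genes had an adjusted p under 0.05 in edgeR's quasi-likelihood test on exon reads, and none had an unadjusted p under 0.05; the lowest was 0.189, for Rps15a. Of all 14461 genes tested none was called either (0.00%), while 4.55% had an unadjusted p under 0.05; DESeq2 called 95 genes, none of them a ribosomal protein gene, and 0 of the 82 it tested had an unadjusted p under 0.05. In the authors' deposited table, which lists 82 of the genes, 0 had an adjusted p under 0.05, of 80 such genes among 16128. Over all tested genes, 52.1% of the log2 fold changes were positive. Those of the 81 were positive for 46 and negative for 35. They ran from -0.38 to 0.43, with a median of 0.02, against a median of 0.01 over all tested genes. Their quartiles were -0.06 and 0.09, against -0.15 and 0.16 for all tested genes. None exceeded 0.5 in size, while 12.0% of all tested genes did. All tested genes were not matched to the 81 in level, so the narrower range does not show that the 81 were steadier. Measured from the saline mean on the log2 scale, the medians of the 81 were 0.28 and -0.28 in the immune complex libraries. Such opposite shifts offset each other in a fold change between the groups. The balance of signs moved with the scaling, with 22 positive and 59 negative without normalisation factors, where the median over all tested genes was -0.07.

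By subunit, 24 of 43 large subunit genes and 16 of 30 small subunit genes had a positive log2 fold change (background over all tested genes 52.1%). The medians were 0.01 in each. Of 19 genes in which mutations are known to cause Diamond-Blackfan anaemia in humans, 10 were positive and 9 negative, with a median of 0.00. The groups did not overlap in 7 genes: 6 were higher in both immune complex libraries (background over all tested genes 14.9%) and 1 was lower in both (background 14.6%). The higher ones were Rpl7, Rpl9, Rpl26, Rps4x, Rps6 and Rps15a, and the lower one was Rpl7l1.

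**Figure D3:**
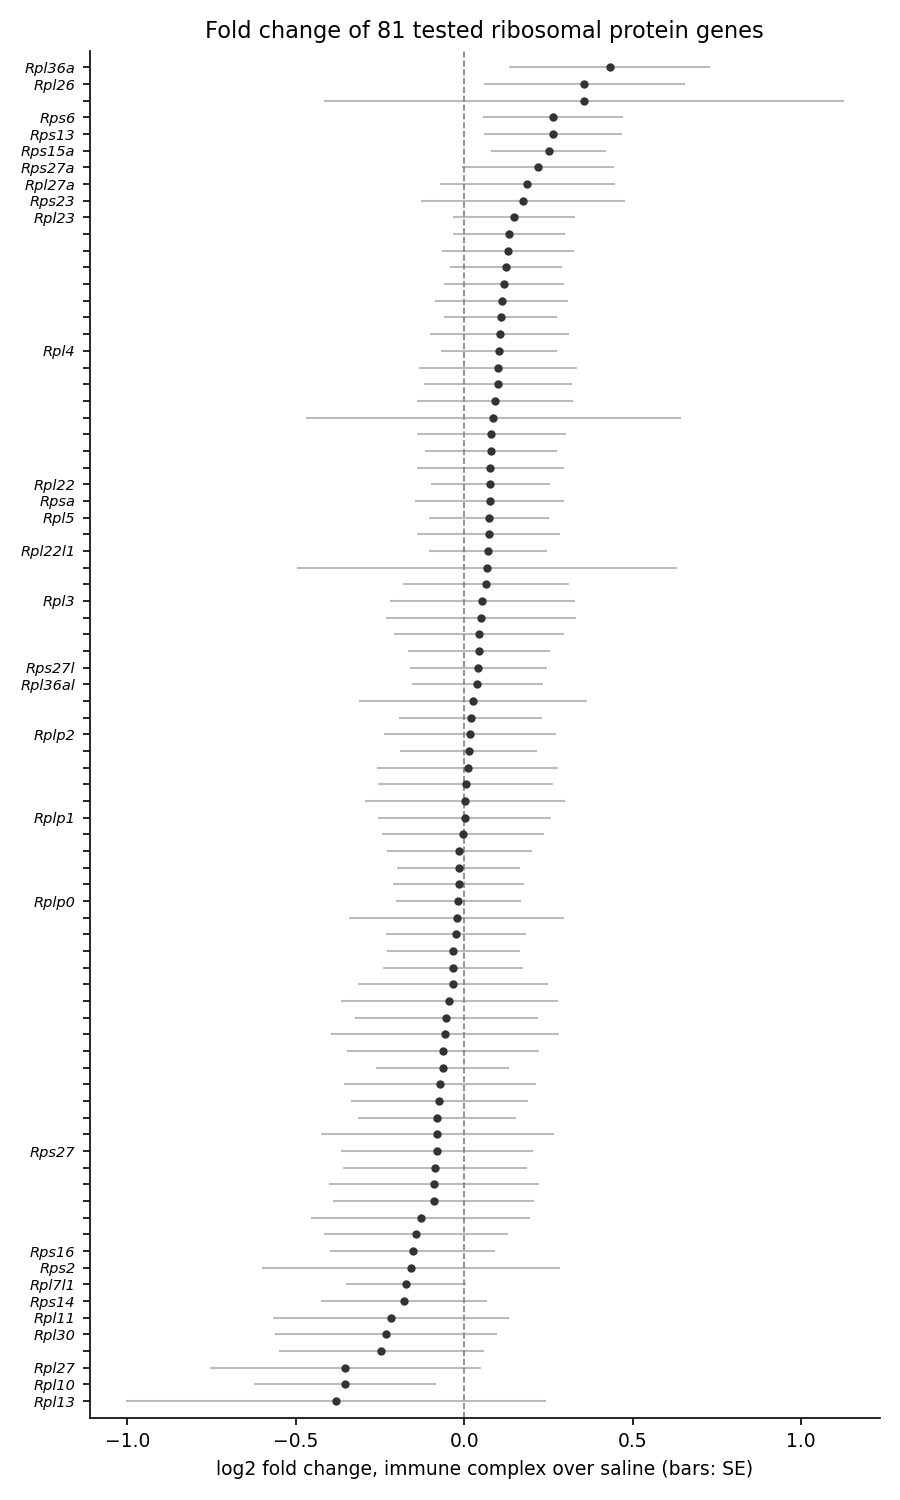
The log2 fold change, immune complex over saline, of each of the 81 tested genes is plotted with its standard error, from exon reads of 2 against 2 libraries, with a name beside genes whose fold change is given in the text. The values run from -0.38 (Rpl13) to 0.43 (Rpl36a), and none passed the test.

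The highest fold changes among genes of at least 10 CPM (counts-per-million of exon reads, scaled by TMM) did not pass the test. Rpl36a, of the large subunit, had 15.4 and 9.32 CPM in immune complex and 8.19 and 10.2 CPM in saline libraries, a log2 fold change of 0.43 ± 0.30 (SE; edgeR unadjusted p = 0.195, adjusted p = 0.9998). Only immune complex 1 was above both saline libraries. Rps6 had 210 and 153 CPM in immune complex and 152 and 150 CPM in saline libraries (0.26 ± 0.21), and Rps13, of the small subunit, had 77.9 and 57.0 CPM in immune complex and 54.8 and 57.6 CPM in saline libraries (0.26 ± 0.21). In both, immune complex 2 lay next to the saline values. With its copies Rps6 had 0.15 and from unique reads 0.01, and Rps13 had 0.13 with its copies. Rps15a, of the small subunit, had 76.4 and 84.6 CPM in immune complex and 64.2 and 71.1 CPM in saline libraries (0.25 ± 0.17), with both immune complex libraries higher. Rps27a, which is made as a fusion with ubiquitin, Rpl27a, Rps23 and Rpl23 had log2 fold changes of 0.22, 0.19, 0.17 and 0.15.

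The lowest fold changes were those of Rpl10, which joins the large subunit late in its assembly, and Rpl27. Rpl10 had 54.8 and 35.7 CPM in immune complex and 48.3 and 67.3 CPM in saline libraries (-0.35 ± 0.27). Rpl27 had 36.3 and 14.3 CPM in immune complex and 30.7 and 33.9 CPM in saline libraries (-0.35 ± 0.40), so that immune complex 1 was the highest library and immune complex 2 the lowest. Rpl11 had the same order, with 174 and 79.9 CPM in immune complex and 156 and 139 CPM in saline libraries (-0.22 ± 0.35), and with its copies its log2 fold change was -0.06. Rpl30, Rps14, Rps2 and Rps16 had log2 fold changes of -0.23, -0.18, -0.16 and -0.15. Rpl13, named after its values were seen because it had the lowest of all at -0.38 ± 0.62, had 8.15 and 2.23 CPM in immune complex and 9.19 and 4.35 CPM in saline libraries.

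Among genes fixed by name, the stalk proteins Rplp0, Rplp1 and Rplp2 had log2 fold changes of -0.02, 0.00 and 0.02. Rpsa, a small subunit protein also known as the laminin receptor, had 0.08 and Rpl5 had 0.07. Rpl4, named for its high level per length and high unique share, had 0.10. Rpl26, named for its low level per length, had 0.36 ± 0.30 from its own 253 reads; it had 0.10 with its copies and -0.15 from unique reads, so its direction turned with the reads counted. Rpl3 had 0.05 alone and 0.00 with its copies.

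The paralogs of core proteins are related second genes, some of which are used in certain tissues in place of the first. Rps27l had 126 and 95.4 CPM in immune complex and 101 and 114 CPM in saline libraries, a log2 fold change of 0.04, beside -0.08 for Rps27. Rpl22l1 had 34.8 and 34.7 CPM in immune complex and 30.7 and 35.4 CPM in saline libraries (0.07), beside 0.08 for Rpl22. Rpl36al had 0.04, beside 0.43 for Rpl36a. Rpl7l1, a relative of Rpl7 that works in ribosome assembly, was the single gene lower in both immune complex libraries, at 35.1 and 41.8 CPM, against 43.2 and 43.6 CPM in saline libraries (-0.17 ± 0.18; edgeR unadjusted p = 0.365). Per length, Rpl36al at 73.9 RPKM was above Rpl36a at 5.91 RPKM, and Rpl7l1 at 14.4 RPKM was below Rpl7 at 134 RPKM. For the other pairs the order of the levels depended on the length used. In deposited RPKM, Rps27l stood at 122 and Rps27 at 149, while over the length of the principal transcript Rps27l stood at 219 and Rps27 at 121. Rpl22l1 stood at 63.3 and Rpl22 at 52.8 in deposited RPKM, and Rpl22l1 at 61.4 and Rpl22 at 82.1 over the principal transcript. Coding sequences of these pairs shared runs of at most 26 identical bases, in Rpl22 and Rpl22l1, and were between 48.5% (Rpl7 and Rpl7l1) and 87.7% (Rpl36a and Rpl36al) identical.

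What stood out among the ribosomal protein genes was the difference between the 2 immune complex libraries. The 84 genes took 1.67% of the exon reads in immune complex 1 and 1.13% in immune complex 2, against 1.45% and 1.48% in the saline libraries. The means were 1.40% ± 0.378 in immune complex and 1.47% ± 0.0234 in saline libraries (SD, n = 2 each), so the difference of -0.0679 percentage points is well inside the spread of the immune complex libraries. In unique reads the shares were 0.709% and 0.511% in immune complex and 0.640% and 0.643% in saline libraries. With their copies the genes took 1.88% and 1.31% in immune complex and 1.66% and 1.69% in saline libraries. In bulk tissue, fewer cells of a type and less RNA per cell cannot be told apart.

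In most of the genes the libraries had the same order. Immune complex 1 was above both saline libraries and immune complex 2 below both in 59 of the 81 genes, against 18.5% of all tested genes. Measured from the mean of the saline libraries on the log2 CPM scale, their median was 0.28 in immune complex 1 and -0.28 in immune complex 2, while over all tested genes it was 0.01 and -0.00. The saline libraries lay at -0.05 and 0.05. From the mean of the 4 libraries, the SD over the 81 genes was 0.192 and 0.276 in immune complex and 0.153 and 0.122 in saline libraries. Over 10420 other genes between 2.41 and 8.73 log2 CPM it was 0.279 and 0.297 in immune complex and 0.297 and 0.155 in saline libraries. That range is wide, and the other genes were not matched to the 81 in level within it. The 40S and 60S genes shifted alike, with medians of 0.31 and -0.28 for the small subunit and 0.27 and -0.27 for the large subunit in immune complex 1 and immune complex 2. The 7 genes with at least 95% unique reads had medians of 0.19 and -0.24; 7 of 7 were above the saline mean in immune complex 1 and 5 of 7 below it in immune complex 2, the others being Rpl4 and Rpl23.

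**Figure D4:**
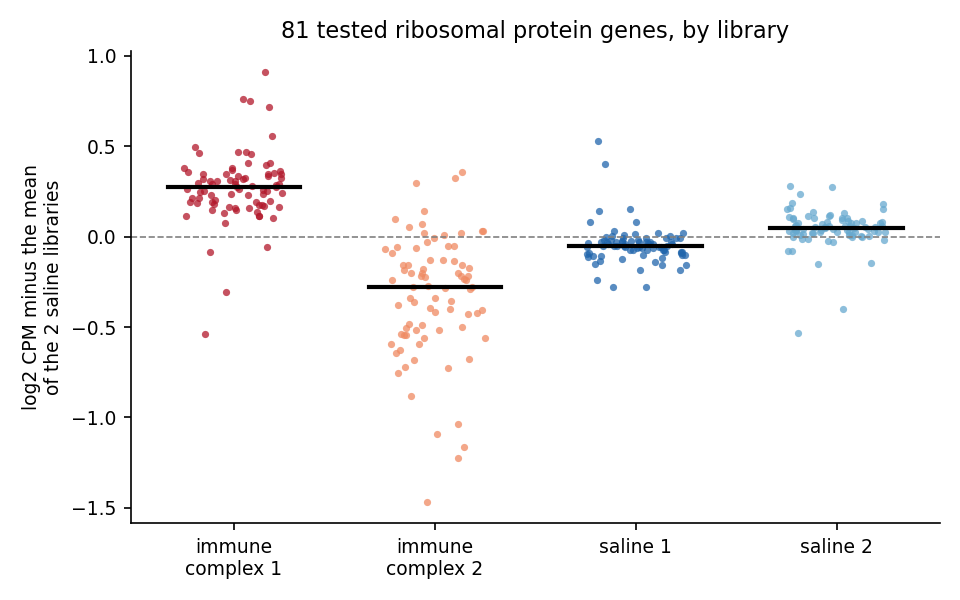
Each point is 1 of the 81 tested genes; the vertical axis is its log2 CPM minus the mean of the 2 saline libraries, and the black bars are medians. The medians are 0.28 in immune complex 1, -0.28 in immune complex 2, -0.05 in saline 1 and 0.05 in saline 2.

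Against this order, 15 genes were not above the saline mean in immune complex 1 and below it in immune complex 2. In Rpl24 (the row with the ID of Zbtb11), Rpl7l1, Rpl21 and Rpl10 immune complex 1 was below the saline mean, by 0.54, 0.30, 0.08 and 0.06. In the others, among them Rps15a, Rpl26 and Rps4x with differences of 0.32, 0.30 and 0.14 in immune complex 2, both immune complex libraries were above it. Rps4x, the X-linked gene of a small subunit protein, had 373 and 382 CPM in immune complex and 341 and 353 CPM in saline libraries.

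Other short genes had the same order between libraries. The tested ribosomal protein genes have a median transcript length of 851 bases, against 2898 over all tested genes. Among tested genes that are no ribosomal protein genes, those with transcripts under 600 bases had medians of 0.26 in immune complex 1 and -0.25 in immune complex 2, and those of 600 to under 900 bases had 0.21 and -0.25. Genes of 3000 bases and over had -0.07 and 0.09. In the same bins of under 600 and of 600 to under 900 bases, ribosomal protein genes had 0.31 and -0.34, and 0.28 and -0.40. The order of the libraries was thus shared with other genes of like length, and the part of transcript length in it was not tested. Intron reads were 9.96% and 7.39% of all gene reads in immune complex and 8.29% and 8.90% in saline libraries, with immune complex 1 again the highest and immune complex 2 the lowest.

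**Figure D5:**
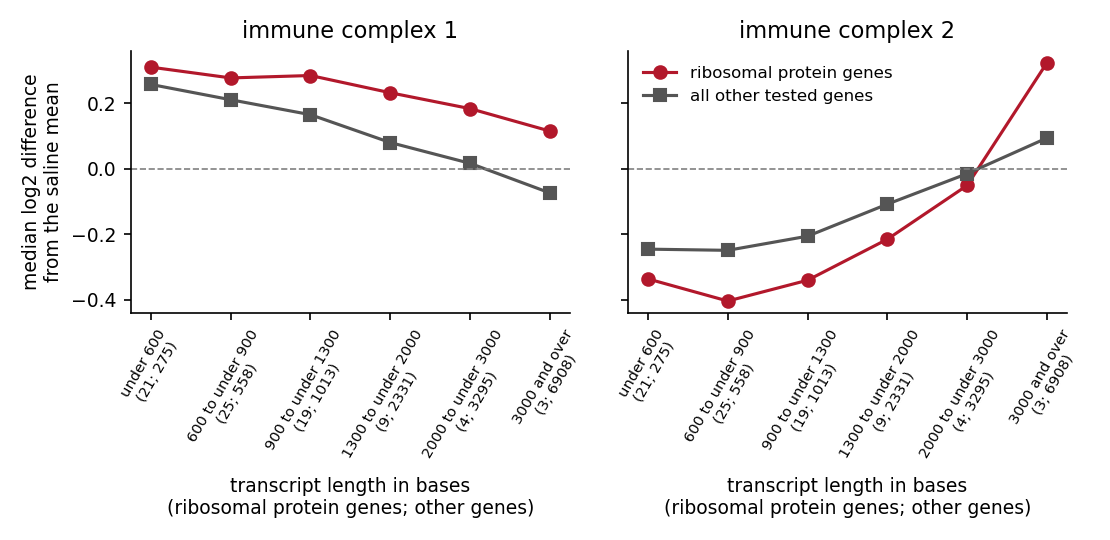
For immune complex 1 and immune complex 2, the median difference from the saline mean (log2 CPM) is plotted by transcript length for ribosomal protein genes and for all other tested genes, with the number of each in brackets. Short genes of both kinds are above 0 in immune complex 1 and below 0 in immune complex 2; the last 3 bins hold 9, 4 and 3 ribosomal protein genes.

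Without immune complex 1, the median log2 fold change of the 81 genes was -0.28, and without immune complex 2 it was 0.27. The sign of the median therefore changed with the immune complex library that was kept. No p is given for these values, since the immune complex side is then a single library.

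Genes that work with the ribosome were looked at as lists. The 76 mitochondrial ribosomal protein genes, which build the separate ribosome of mitochondria, had medians of 0.22 in immune complex 1 and -0.17 in immune complex 2, and a median log2 fold change of 0.02, with none called. Mrpl47 was the one with the lowest p, at 24.8 and 22.5 CPM in immune complex and 17.9 and 16.4 CPM in saline libraries (0.47 ± 0.19; edgeR unadjusted p = 0.0439, adjusted p = 0.9998). Mrps22 had 0.30, Mrps18a -0.29 and Mrps24 -0.20. Another list held 18 other genes whose messages are known to carry the 5′ TOP motif. Most are translation factors such as Eef2, and Tpt1, the splicing factor Hnrnpa1 and the intermediate filament gene Vim are among them. These 18 genes had medians of 0.07 in both immune complex libraries, and were not matched to the ribosomal protein genes in transcript length. Their median log2 fold change was 0.08, with none called; Tpt1 had 1259 and 1206 CPM in immune complex and 965 and 1063 CPM in saline libraries (0.28 ± 0.16), and Vim had 0.38, Eef2 -0.07 and Hnrnpa1 -0.06. Of 32 genes of rRNA transcription and ribosome assembly, 21 had a positive and 11 a negative log2 fold change, none called. Over all tested genes 52.1% were positive. Among the 32, Taf1d had 0.45, Wdr12 0.38, Eif6 -0.25 and Taf1b -0.16.

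Of 22 genes of mTORC1 and the control of ribosomal protein translation, 14 had a positive and 8 a negative log2 fold change and none was called. Over all tested genes 52.1% were positive. The largest of the 22 was that of Eif4ebp3, a repressor of cap-dependent translation, at 2.59 and 4.09 CPM in immune complex and 0.528 and 0.674 CPM in saline libraries (2.46 ± 0.43; edgeR unadjusted p = 0.000953, adjusted p = 0.435). Over the settings tried its adjusted p ran from 0.000486 to 0.764, and it was 0.0202 in DESeq2. Ddit4, an inhibitor of mTORC1 that is induced by stress, had 16.4 and 10.6 CPM in immune complex and 24.1 and 18.4 CPM in saline libraries (-0.65 ± 0.28; edgeR unadjusted p = 0.0523). Rps6kb1, the kinase of Rps6, had 0.31 and Sesn3, an inhibitor of mTORC1, had -0.40. Among ribosomal proteins that the symbol rule does not take, Rps3a1 had 369 and 379 CPM in immune complex and 330.1 and 341 CPM in saline libraries, with both immune complex libraries higher. Fau and Gnb2l1 had immune complex 1 highest and immune complex 2 lowest. Fau had 425 and 236 CPM in immune complex and 335 and 363 CPM in saline libraries. Gnb2l1, also called Rack1, had 454 and 384 CPM in immune complex and 445 and 430 CPM in saline libraries.

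The libraries held 20520902 and 20080225 exon reads in immune complex and 18044194 and 19084725 in saline. All 8 kidney markers were present, summing to 12305 and 14072 CPM in immune complex and 15657 and 14239 CPM in saline libraries. The 7 adipocyte markers summed to 1526 and 1143 CPM in immune complex and 56.8 and 475 CPM in saline libraries, and 7 of 7 were higher in both immune complex libraries (14.9% of all tested genes were). The 5 red cell markers summed to 995 and 1003 CPM in immune complex and 573 and 518 CPM in saline libraries, with 5 of 5 higher in both immune complex libraries. The 7 macrophage markers summed to 194 and 225 CPM in immune complex and 159 and 171 CPM in saline libraries, with 4 of 7 higher in both. The 6 urothelium markers summed to 16.0 and 15.2 CPM in immune complex and 54.9 and 83.4 CPM in saline libraries, with 1 of 6 lower in both immune complex libraries (14.6% of all tested genes were). Lymphocyte markers were near 0, with 0.149 and 0.104 CPM in immune complex and 0.158 and 0.104 CPM in saline libraries, and Ms4a1 had no read. None of these sums had immune complex 1 and immune complex 2 on opposite sides of both saline libraries, and their part in the values above was not tested.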

How the data were processed

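RNA of 4 mouse kidney samples was sequenced, with a total of 18044194 to 20520902 exon reads per library. STAR 2.5.2b, DESeq2 and the build GRCm38 are named in the submitters' processing notes. What counted the reads, what it did with reads that match several places, its strand setting and its annotation are not given. Per the file headers, the deposited tables hold raw counts of total and unique gene, exon and intron reads, and RPKM values computed by the authors. The RPKM did not rest on exon reads in every row. Rps12l1 had no exon read, yet had 1.24 and 0.930 RPKM in immune complex and 1.13 and 0.577 RPKM in saline libraries. The authors' deposited comparison table holds a log2 fold change and a p-value per gene, coded saline over immune complex.

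Total exon counts were tested with edgeR 4.0.16 (R 4.3.3; filterByExpr, TMM, glmQLFit and glmQLFTest, two-sided, Benjamini-Hochberg over 14461 genes, adjusted p threshold 0.05), immune complex over saline, after the procedure was tested on simulated data. CPM are TMM-scaled exon counts-per-million; log2 CPM used a prior count of 2. Exon reads were chosen over total gene reads, which add intron reads. Copies were found with blastn 2.17.0 against GENCODE M21 pseudogene transcripts. A unique share has a Wilson 95% interval, and a share of 0 a limit of 3 reads; both cover counting error alone, and reads may be PCR copies of 1 molecule. Transcript lengths are those of the GENCODE M21 principal transcript, the longest where several tie.

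Genes named are the 8 highest and 8 lowest fold changes with a mean of at least 10 CPM, the 5 highest and 5 lowest by RPKM and by unique share, genes fixed by name, and the genes of lowest p in each list; Rpl13 was added, and values of some genes are not reported here. Genes and lists were chosen with earlier results of these data known. Alternatives were unique exon reads, total gene reads, RLE factors, no factors, totals without ribosomal protein and mitochondrial genes, no filter, DESeq2 1.42.0, a replicate block and leaving out each library. A crossed block, removal of a transcript length trend and adding copies were chosen after seeing the data.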

Additional observations from a re-analysis of the deposited data

How the results depend on the processing

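With 2 libraries per group, 1 library can decide a direction, and reads that match several places limit how well a gene is told from its copies. No ribosomal protein gene was called under any of the settings tried. The number of all genes called, 0 in the main test, was 1 with unique exon reads, 1 without normalization factors, 1 with totals without ribosomal protein and mitochondrial genes, 95 in DESeq2, and between 0 and 256 when a library was left out (40 without saline 1 and 256 without saline 2). With the replicate number as a block it was 251, and the block called no ribosomal protein gene. With the crossed pairing it was 254. The deviations of same-numbered libraries from their group means had a correlation of -0.15. With 2 libraries per group, both numbers give this same value by construction. It therefore cannot show whether same-numbered libraries share more than a number.

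The median log2 fold change of the 81 genes lay between -0.28 and 0.27 when a library was left out and between -0.07 and 0.02 under the other settings. The difference in summed share lay between -0.335 and 0.199 percentage points when a library was left out.

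Directions near 0 turned, and the cause was not tested. The log2 fold change of Rplp1 was -0.037 with unique reads, -0.024 with total gene reads, -0.0010 with RLE factors, -0.080 without factors, -0.036 with totals without ribosomal protein and mitochondrial genes, -0.0023 without a filter, -0.0037 in DESeq2, -0.040 with the replicate block, -0.040 with the crossed block and -0.011 with the length trend removed. That of Rplp2 was -0.066 with unique reads, -0.011 with total gene reads, -0.065 without factors, -0.021 with totals without ribosomal protein and mitochondrial genes, -0.026 with the replicate block and -0.025 with the crossed block. Without factors Rpsa was -0.0065, Rpl5 was -0.011, Rpl22 was -0.0058, Rpl22l1 was -0.013, Rps27l was -0.040, Rpl3 was -0.024 and Rpl36al was -0.043. With unique reads Rpl26 was -0.15.

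When each library was left out in turn, these genes took both signs: Rpl27 lay between -1.17 and 0.17, Rpl30 -0.77 and 0.15, Rpl11 -0.88 and 0.24, Rps14 -0.55 and 0.11, Rps2 -1.10 and 0.41, Rps16 -0.52 and 0.14, Rps27a -0.066 and 0.46, Rpl27a -0.20 and 0.49, Rps23 -0.34 and 0.56, Rplp0 -0.18 and 0.13, Rplp1 -0.39 and 0.31, Rplp2 -0.38 and 0.33, Rpsa -0.22 and 0.32, Rpl5 -0.048 and 0.19, Rpl22 -0.030 and 0.18, Rpl22l1 -0.027 and 0.18, Rps27 -0.52 and 0.26, Rps27l -0.17 and 0.23, Rpl3 -0.26 and 0.36, Rpl36al -0.14 and 0.20, Fau -0.56 and 0.28, Gnb2l1 -0.19 and 0.053, Eef2 -0.13 and 0.0014, Hnrnpa1 -0.16 and 0.039, Sesn3 -0.92 and 0.22, Mrps24 -0.62 and 0.13. Others kept their sign but moved by over 1.5 times, among them Rpl36a, between 0.02 and 0.75, Rps6 and Rps13, each between 0.02 and 0.47, Rpl10, between -0.69 and -0.08, Rpl7l1, between -0.30 and -0.05, and Ddit4, between -1.001 and -0.37. Where a group is left with a single library, the test assumes that it varies like the other group.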
